A study of Rattus norvegicus with 12 samples.

Results

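The genes of hemoglobin and of heme synthesis were followed across 12 RNA libraries of rat bone defects. They are 9 of the 22601 genes in the expression table, chosen by their symbol as the table spells it: the hemoglobin alpha chain genes Hba1 and Hba2, the beta chain genes Hbb and Hbb-b1, and Alas2, Alad, Urod, Cpox and Fech, which encode enzymes of heme synthesis. All 9 were found, and all 9 passed the filter on low values described below. The libraries came from Sprague Dawley rats, 8 weeks old at surgery, in which a 3 mm drill hole was made in the distal femur. Newly formed tissue was taken 2 weeks after the defect was made. There were 3 libraries in each of 4 groups: hydrogel, in which a 3D printed scaffold of gelatin methacryloyl was implanted, PCL, with a scaffold of the polyester polycaprolactone, β-TCP, with a scaffold of the ceramic β-tricalcium phosphate, and control, with the same defect and no scaffold. The scaffold samples were the tissue together with its scaffold niche, and the control samples were the new tissue alone. Whether the 3 libraries of a group were from 3 rats is not in the labels, and the p-values therefore cover just the variation among the libraries sequenced.

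Hemoglobin, the oxygen carrier of red blood cells, is a tetramer of alpha and beta globin chains, each of which holds a heme group. Heme is built from glycine and succinyl-CoA in a chain of enzymes that starts and ends in the mitochondrion. Alas2 encodes the first enzyme as used in red cell precursors, whereas Alas1 encodes the form used in other cells. In bone, red cells are made in the marrow, so transcripts of these genes in bone tissue are usually read as coming from marrow erythroblasts and from reticulocytes of the blood.

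The alpha genes and the beta genes each lie in a cluster, and some copies within a cluster are near-identical, which matters for how their reads can be told apart. Of the 9 genes, 8 had a RefSeq window of 250 bases before to 50 bases after the start site (build GRCr8), matched by gene identifier. The table's Hba1 is named Hba-a1 there, and its Hba2 is named Hba-a2. The windows of Hba1 and Hba2 were the same at 288 of 300 aligned bases (96%). Those of Hbb and Hbb-b1 were the same at 206 of 271 (76%), and the window of Hbb-b1 matched that of LOC100134871, a further beta gene of the table, at 292 of 297 (98.3%). The last 130 bases before the start site are shown for the 4 hemoglobin genes, since these genes moved together from library to library. Hba1 and Hba2 differ there by few letters, while Hbb and Hbb-b1 differ by many. Capitals mark matches to CCAAT boxes and to TATAAA or its variant on either strand, so ATTGG is a match to the first of these on the other strand.
Hba1: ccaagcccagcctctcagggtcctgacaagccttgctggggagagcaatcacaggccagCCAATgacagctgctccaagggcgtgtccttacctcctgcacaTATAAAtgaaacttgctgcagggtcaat
Hba2: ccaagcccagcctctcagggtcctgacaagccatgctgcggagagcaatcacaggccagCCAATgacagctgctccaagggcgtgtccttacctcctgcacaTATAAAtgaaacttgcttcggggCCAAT
Hbb: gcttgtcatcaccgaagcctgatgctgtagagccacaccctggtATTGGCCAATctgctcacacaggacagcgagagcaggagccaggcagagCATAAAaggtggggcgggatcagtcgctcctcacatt
Hbb-b1: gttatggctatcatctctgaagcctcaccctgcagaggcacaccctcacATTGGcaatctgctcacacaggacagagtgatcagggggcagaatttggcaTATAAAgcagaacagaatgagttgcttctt

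These stretches lie on the minus strand of GRCr8 at chr10:15842581-15842710 for Hba1, chr10:15829139-15829268 for Hba2, chr1:167663722-167663851 for Hbb and chr1:167643521-167643650 for Hbb-b1. The start site of the Hbb-b1 window lies 57 bases inside the edge of the gene as RefSeq annotates it. The letters of 6 motifs were searched on both strands over the whole windows. They were the GATA motif letters AGATAA, their variant TGATAA, the Krüppel-type letters CCACCC, the CCAAT box, the TATA box letters TATAAA and, as a variant of that box, CATAAA. The box CCAAT stood in all 4 hemoglobin windows, against 37.5% of all 33469 RefSeq windows. TATAAA stood in 3 of them and the variant CATAAA in the window of Hbb, against 14.2% and 12.7% of all windows. TGATAA was found in Hba1 and Hba2, in both at 165 bases before the start, against 9.03% of all windows. CCACCC was found in Hbb-b1, against 29.4%. Outside the hemoglobin genes, AGATAA was found in the windows of Alas2 and Fech, against 11.6%, and the start site of the Alas2 window lies 4800 bases inside the annotated gene edge. A match of letters is a description and not a measured binding site.

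The measurements are FPKM, fragments scaled to transcript length and to library size, which the authors computed per gene. Dividing each gene's FPKM by the step that 1 fragment adds gave whole numbers within 0.01 for every gene above 0, and the depth so read back was 15036447 to 17358370 fragments per library. The values of the 9 genes rested on 191 fragments at the fewest, for Alad in control replicate 3, and on 537099 at the most, for Hba1 in PCL replicate 3. Control replicate 3 stood apart. It was the lowest library for each of the 9 genes, and its cartilage markers summed to 12402 FPKM, against 1906 and 1966 in the other control libraries. β-TCP replicates 2 and 3 were unusually close, with a mean chi-square of 2.18 per gene on their fragments, whereas the other 11 within-group pairs had 31.9 to 318. Their median chi-square was 0.719, and counting noise gives 0.455. For Hba1 that pair differed by a chi-square of 341 and for Alas2 by 0.404, so the pair was above counting noise for some of the 9 genes and not for others. They were used as the 2 libraries that the labels give, and counts were also taken with the pair averaged.

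Hba1, an alpha chain gene, had the highest level of the 9 in every library. It was at 34859, 18888 and 38349.7 FPKM in the hydrogel libraries, 21074, 33972 and 58206 FPKM in the PCL libraries, 14468, 7188 and 6472 FPKM in the β-TCP libraries, and 17955, 28664 and 1752 FPKM in the control libraries. All 3 β-TCP libraries lay below all 3 hydrogel and all 3 PCL libraries, while the control libraries overlapped each scaffold group. The highest library was the largest multiple of the lowest in the control group, whereas the difference between them in FPKM was largest in the PCL group. Hba2, the neighbouring alpha chain gene, was at 15543, 8317 and 15937 FPKM in the hydrogel libraries, 8646, 19586 and 31622 FPKM in the PCL libraries, 5097, 2783 and 2451 FPKM in the β-TCP libraries, and 8104, 13383 and 769 FPKM in the control libraries. The libraries fell in nearly the same order as for Hba1.

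Hbb, a beta chain gene, was at 26612, 11806 and 25813 FPKM in the hydrogel libraries, 13263, 18386 and 36197 FPKM in the PCL libraries, 9202, 3929.9 and 4077 FPKM in the β-TCP libraries, and 8373, 15881 and 1082 FPKM in the control libraries. Hbb-b1, a further beta chain gene, was at 3579, 1903 and 3958 FPKM in the hydrogel libraries, 2014, 3257 and 5485 FPKM in the PCL libraries, 1392, 604 and 639 FPKM in the β-TCP libraries, and 1310.4, 2432 and 117 FPKM in the control libraries. For both beta genes the highest library was again PCL replicate 3 and the lowest control replicate 3.

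Alas2, whose product joins glycine and succinyl-CoA in red cell precursors, was at 363, 169 and 380.4 FPKM in the hydrogel libraries, 208, 288 and 546 FPKM in the PCL libraries, 140.5, 54.2 and 55.4 FPKM in the β-TCP libraries, and 144, 259 and 9.34 FPKM in the control libraries. Its highest library was 58.5 times its lowest, the widest range of the 9 genes, and 10.1 times its second lowest. Alad, whose product joins the first intermediates into a pyrrole ring, was at 69.7, 32.9 and 61.8 FPKM in the hydrogel libraries, 43.5, 68.3 and 131 FPKM in the PCL libraries, 28.7, 13.0 and 15.2 FPKM in the β-TCP libraries, and 32.7, 47.2 and 5.53 FPKM in the control libraries.

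Urod, whose product removes carboxyl groups from uroporphyrinogen, was at 189, 97.5 and 157 FPKM in the hydrogel libraries, 116, 166 and 319 FPKM in the PCL libraries, 86.1, 48.9 and 49.9 FPKM in the β-TCP libraries, and 82.6, 115 and 26.2 FPKM in the control libraries. It had the narrowest range of the 9 genes, 12.2 times from the lowest to the highest library. Cpox, whose product acts on coproporphyrinogen, was at 133, 77.3 and 144 FPKM in the hydrogel libraries, 99.6, 173 and 284 FPKM in the PCL libraries, 59.0, 32.3 and 31.9 FPKM in the β-TCP libraries, and 70.9, 104 and 9.80 FPKM in the control libraries. Fech, whose product inserts iron into protoporphyrin as the last step, was at 78.6, 37.9 and 82.6 FPKM in the hydrogel libraries, 52.1, 76.5 and 141 FPKM in the PCL libraries, 30.0, 14.4 and 13.9 FPKM in the β-TCP libraries, and 36.8, 59.5 and 4.48 FPKM in the control libraries. All 5 enzyme genes thus had their highest library in PCL replicate 3 and their lowest in control replicate 3.

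**Figure D1:**
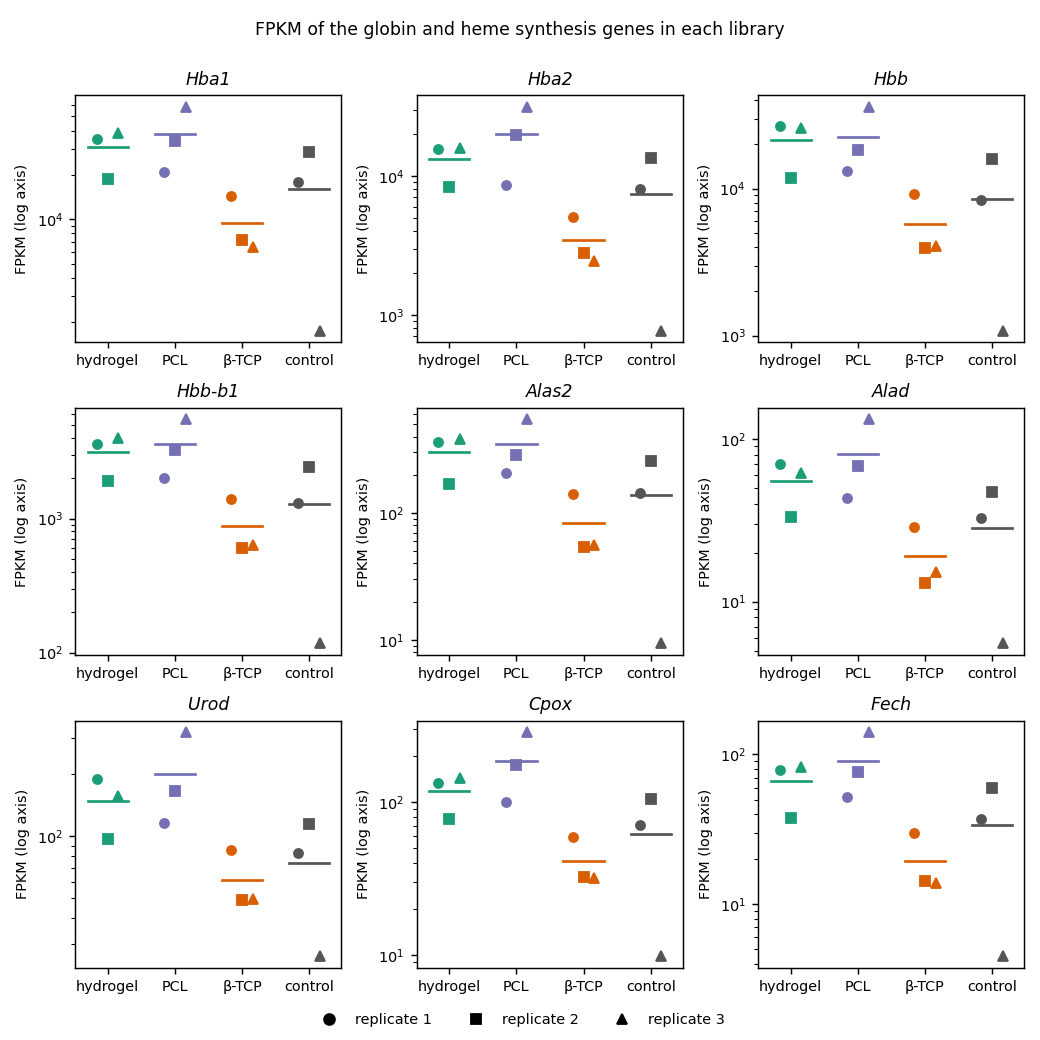
FPKM of each of the 9 genes on a log axis, with 1 point per library, marked by replicate, and a bar at the mean of the 3 libraries of a group. In every panel the β-TCP points lie below the hydrogel and PCL points, and control replicate 3 is the lowest point (1752 FPKM for Hba1).

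The group means of FPKM had the same order for all 9 genes: PCL, hydrogel, control and β-TCP, from high to low. On the log2 scale tested below, Hbb-b1, Alas2 and Hbb were instead slightly higher in β-TCP than in control libraries (0.17, 0.06 and 0.01). For Hba1 the means were 30699 ± 10376 FPKM for hydrogel, 37751 ± 18852 for PCL, 9376 ± 4424 for β-TCP and 16124 ± 13549.5 for control libraries (SD, n = 3 each). Neighbours in this order had overlapping libraries for all 9 genes, whether PCL with hydrogel, hydrogel with control or control with β-TCP. The SD was 84.0% of the mean for Hba1 in the control group and 90.954% for Alas2, against 33.8% and 38.5% in the hydrogel group.

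Differences were tested with limma on log2(FPKM + 1) over the 12633 genes that reached 1 FPKM in 3 or more libraries, in 1 fit of the 12 libraries. Fold changes below are on that scale, and p-values were adjusted over all genes tested by the Benjamini-Hochberg method. None of the 9 genes passed an adjusted p of 0.05 in any of the 6 comparisons. The paper's methods use a p value under 0.05 and a change of more than 2 times either way. Counts at that threshold, taken here with the p before adjustment, are given for each comparison. The share of all genes at that threshold is given for this fit only. For other settings and left-out libraries the counts show how the calls moved and are not set against all genes. Some counts use an unadjusted p under 0.05 alone, and the share of all genes at that cut is not given. Whether such a count is unusual among all genes is therefore not shown. Since these are bulk samples, fewer cells of a type and less RNA per cell cannot be told apart.

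In the hydrogel group compared with the control group all 9 genes had higher means. Their log2 fold changes ran from 1.16 for Urod to 2.05 for Hbb-b1, with a median of 1.54, while the median of all genes tested was 0.14. That shift of all genes was 0.02 under quantile normalization, where the median of the 9 genes was 1.32. Hbb (log2 fold change 1.94, 95% interval 0.06 to 3.81, adjusted p = 0.312 from limma) and Hbb-b1 (2.05, 0.01 to 4.10, adjusted p = 0.312) passed the threshold of the methods. That made 2 of the 9 higher at this threshold, against 0.807% of all genes tested. At an adjusted p under 0.05 it was 0 of the 9, against 0.00792% of all genes, and 2 of the 9 had an unadjusted p under 0.05, or 0 with limma-voom on fragments. No gene of the 9 had hydrogel and control libraries that did not overlap, against 9.15% of all genes whose hydrogel libraries were all higher. Without control replicate 3 the median log2 fold change was 0.41 and 0 genes passed the threshold. Without control replicate 2 that median was 2.35 and 9 passed, while 0 passed an adjusted p of 0.05, against 0.00792% of all genes. The count at the threshold of the methods was 3 without hydrogel replicate 2 and 1 without β-TCP replicate 1. It was 0 without hydrogel replicate 1 or 3, PCL replicate 1 or 2, or β-TCP replicate 2 or 3.

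The PCL group gave larger differences from the control group. The log2 fold changes ran from 1.53 for Urod to 2.19 for Hbb-b1, with a median of 1.98 against 0.04 for all genes. At the threshold of the methods 7 of the 9 were higher, against 2.37% of all genes tested, and the exceptions were Hba1 (1.84, adjusted p = 0.288 from limma) and Alas2 (2.14, adjusted p = 0.281). Urod had the lowest adjusted p (1.53, 95% interval 0.35 to 2.70, adjusted p = 0.204), and it was the 1 gene of the 9 whose PCL libraries all lay above the control libraries, 116 FPKM in the lowest PCL library and 115 FPKM in the highest control library. Of all genes, 10.3% had PCL libraries that were all higher. None of the 9 passed an adjusted p of 0.05, against 0.277% of all genes, and with limma-voom 5 had an unadjusted p under 0.05. Without control replicate 3 the median was 0.84 and 0 genes passed the threshold of the methods. The count was also 0 without PCL replicate 3 and 2 without PCL replicate 2.

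For the β-TCP scaffold the differences from the control libraries were small and of both signs. Hbb-b1, Alas2 and Hbb had log2 fold changes of 0.17, 0.06 and 0.01, and the other 6 genes ran from -0.08 for Urod to -0.42 for Hba2, with a median over the 9 of -0.10 against 0.03 for all genes. None passed either threshold and none had an unadjusted p under 0.05, also with limma-voom, whereas 4.78% of all genes passed the adjusted p and 3.51% the threshold of the methods. The libraries of the 2 groups overlapped for all 9, while 4.97% of all genes had β-TCP libraries that were all lower. The 95% interval for Hba1 ran from -2.07 to 1.79, so differences of up to about that size in either direction were not excluded. The sign changed with the libraries used. Without control replicate 3 all 9 genes were lower in the β-TCP group, with a median of -1.13, and 6 passed the threshold of the methods. The adjusted p-values of all 9 from limma ran there from 0.066 to 0.266. At an adjusted p under 0.05 it was 0 of the 9 there, against 10.7% of all genes tested. Without control replicate 1 or 2 all 9 were higher, with medians of 0.26 and 0.53. Without β-TCP replicate 1 all 9 were lower, with a median of -0.39, and without β-TCP replicate 2 or 3 there were 6 higher and 3 lower, with medians of 0.034 and 0.042.

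Between scaffolds the β-TCP group was the lowest. Compared with the hydrogel group, the log2 fold changes of the 9 genes ran from -1.96 for Hba2 to -1.25 for Urod, with a median of -1.74 against -0.06 for all genes. All 9 genes had β-TCP libraries that were all lower, against 34.5% of all genes tested, a large share of the table. At the threshold of the methods 3 were lower, Urod, Fech and Hbb, against 5.02% of all genes, and their adjusted p-values from limma were 0.131, 0.142 and 0.138. None passed an adjusted p of 0.05, against 6.13% of all genes. With limma-voom 1 had an unadjusted p under 0.05, and 3 did with limma. The fit of all 12 libraries takes its spread from the control libraries too. Without control replicate 3 all 9 genes passed an adjusted p of 0.05, at 0.014 to 0.029, together with 37.5% of all genes tested, and with only the hydrogel and β-TCP libraries in the fit all 9 passed at 0.018 to 0.028, together with 33.6% of all genes. With β-TCP replicates 2 and 3 averaged, the adjusted p-values were 0.31 to 0.378. At the threshold of the methods the count was 9 without control replicate 2 or 3, 1 without control replicate 1, PCL replicate 1 or PCL replicate 3, and 0 without hydrogel replicate 1, hydrogel replicate 3, PCL replicate 2, β-TCP replicate 2 or β-TCP replicate 3.

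The differences of the PCL group from the β-TCP group were close in size to those from the control group. The log2 fold changes ran from 1.61 for Urod to 2.42 for Hba2, with a median of 2.02 against -0.04 for all genes. All 9 genes had PCL libraries that were all higher, against 21.7% of all genes tested, and 7 passed the threshold of the methods, against 3.34%. The 2 that did not were Alas2 (2.08, adjusted p = 0.242 from limma) and Hbb-b1 (2.02, adjusted p = 0.226). Urod was again the gene with the lowest adjusted p (1.61, 95% interval 0.43 to 2.79, adjusted p = 0.147). None of the 9 passed an adjusted p of 0.05, against 0.657% of all genes, and with limma-voom 5 had an unadjusted p under 0.05. Without control replicate 3 all 9 passed, at adjusted p from 0.022 to 0.031, together with 15.1% of all genes, and with only the PCL and β-TCP libraries in the fit all 9 passed at 0.027 to 0.035, together with 17.3%. At the threshold of the methods the count was 4 without PCL replicate 2, 0 without PCL replicate 3, 2 without β-TCP replicate 2 and 3 without β-TCP replicate 3.

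Between the PCL and hydrogel groups the 9 genes had log2 fold changes from 0.04 for Hbb to 0.57 for Cpox, with a median of 0.36 against -0.06 for all genes. None passed either threshold and none had an unadjusted p under 0.05, also with limma-voom, whereas 0.103% of all genes passed the adjusted p and 0.768% the threshold of the methods. The libraries overlapped for all 9, while 5.09% of all genes had PCL libraries that were all higher. The 95% interval for Hba1 ran from -1.69 to 2.17, so a difference in level between these scaffolds was not shown and its absence was not shown either.

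**Figure D2:**
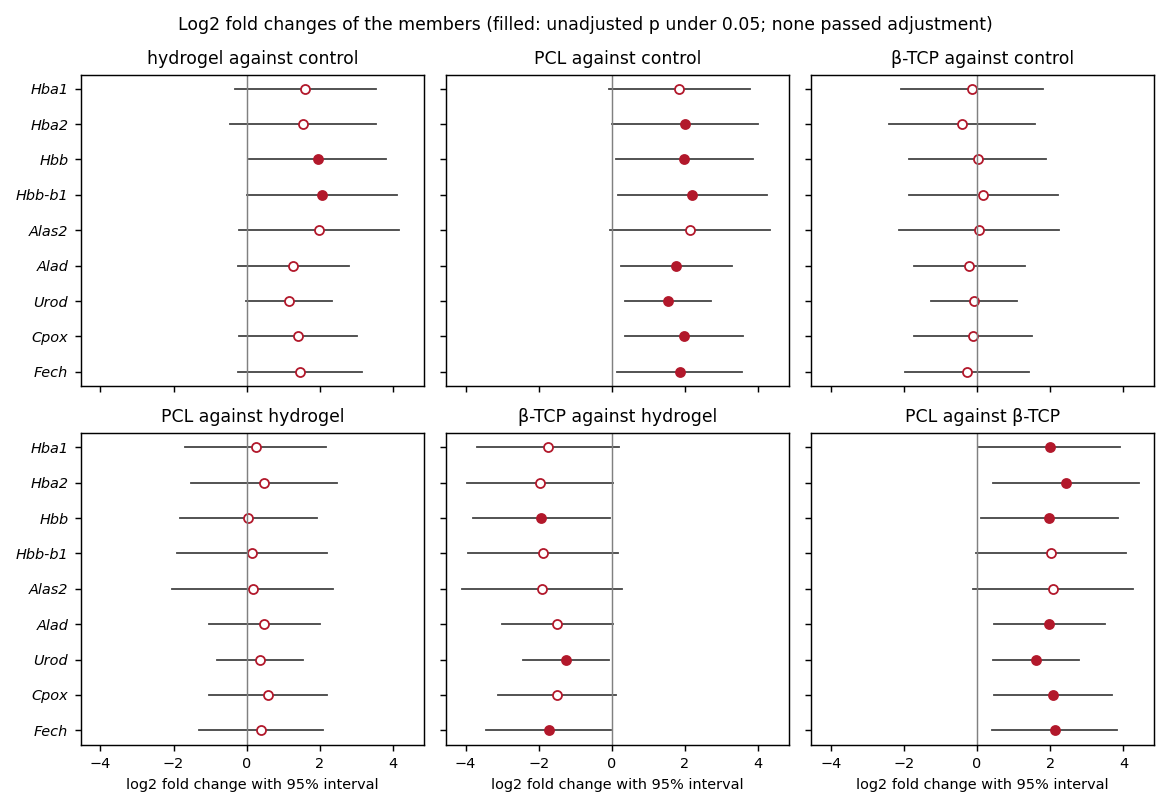
Log2 fold change on the log2(FPKM + 1) scale of the 9 genes in each of the 6 comparisons, with the 95% interval from limma. Filled points have an unadjusted p under 0.05, which 7 genes had in PCL against control and 7 in PCL against β-TCP, and no gene passed after adjustment over all genes.

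The share of the library taken up by hemoglobin followed the same pattern. The 4 hemoglobin genes held 16.2%, 8.69% and 16.4% of the summed FPKM in the hydrogel libraries, 9.48%, 14.9% and 23.1% in the PCL libraries, 6.53%, 3.17% and 2.98% in the β-TCP libraries, and 8.08%, 13.0% and 0.947% in the control libraries. As shares of fragments, which are smaller because the hemoglobin transcripts are short, they ran from 0.214% in control replicate 3 (95% Wilson interval 0.212% to 0.217%) to 7.58% in PCL replicate 3 (7.57% to 7.596%), and these intervals cover counting error only. Leaving all annotated hemoglobin genes out of the library total moved the medians of the 9 genes by little, to 1.47 in hydrogel against control, 1.89 in PCL against control and -1.81 in β-TCP against hydrogel.

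The balance of the chains varied far less than their level. The FPKM of Hbb and Hbb-b1 over those of Hba1 and Hba2 was 0.599, 0.504 and 0.548 in the hydrogel libraries, 0.514, 0.404 and 0.464 in the PCL libraries, 0.541, 0.455 and 0.529 in the β-TCP libraries, and 0.372, 0.436 and 0.476 in the control libraries. The 3 hydrogel libraries lay above the 3 control libraries, and no test was made of this ratio. A wider ratio added LOC100134871 and LOC689064 to the beta genes and the further alpha gene Hba-a1 to the alpha genes. Its mean was 0.755 for hydrogel, 0.622 for PCL, 0.71 for β-TCP and 0.582 for control libraries. Within the alpha pair, Hba2 over Hba1 was lowest in the β-TCP libraries, at 0.352, 0.387 and 0.379, against 0.410 to 0.577 in all other libraries, with the highest values in PCL replicates 2 and 3. Hbb-b1 over Hbb lay between 0.134 and 0.177 in all libraries but control replicate 3, where it was 0.108. Near-identical copies can share reads, and how the authors' counting divided such reads is not given in the sources used here, so ratios between copies are uncertain.

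**Figure D3:**
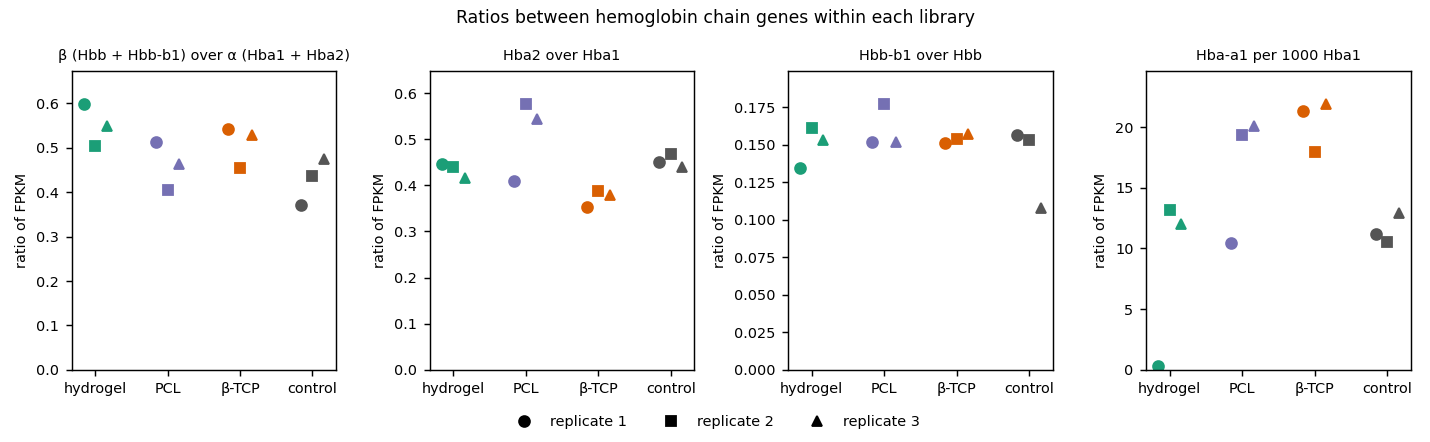
Ratios of FPKM between hemoglobin genes in each library, with 1 point per library, marked by replicate, on axes that start at 0. The ratio of beta to alpha chains lies between 0.372 and 0.599, Hba2 over Hba1 is lowest in the β-TCP libraries, and Hba-a1 per 1000 Hba1 is near 0 in hydrogel replicate 1.

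Each enzyme gene was also set against the summed hemoglobin FPKM of its own library, which removes most of the difference in level between libraries. Fech kept the steadiest ratio, 0.926 to 1.20 FPKM per 1000 hemoglobin FPKM over all 12 libraries. Alas2 lay at 3.73 to 4.66 in 11 libraries and at 2.51 in control replicate 3. Outside that library the highest ratio was 1.25 times the lowest for both genes, while hemoglobin itself spanned 9.64 times. Urod lay at 1.87 to 3.66 in 11 libraries, with 2.86, 3.37 and 3.66 in the β-TCP libraries, and at 7.04 in control replicate 3. Cpox ran from 1.65 to 2.64 and Alad from 0.735 to 1.49, both highest in control replicate 3.

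The same is seen in the slope of log2(FPKM + 1) on log2 summed hemoglobin FPKM across libraries. It is given as a description without a test because libraries share their depth and composition. The slope was 1.10 for Alas2, 0.92 for Fech, 0.88 for Cpox, 0.82 for Alad and 0.66 for Urod over 12 libraries. Without control replicate 3 the slopes over 11 libraries were 1.03, 0.98, 0.91, 0.91 and 0.76 in the same order, so Alas2 and Fech were close to proportional and Urod changed least.

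**Figure D4:**
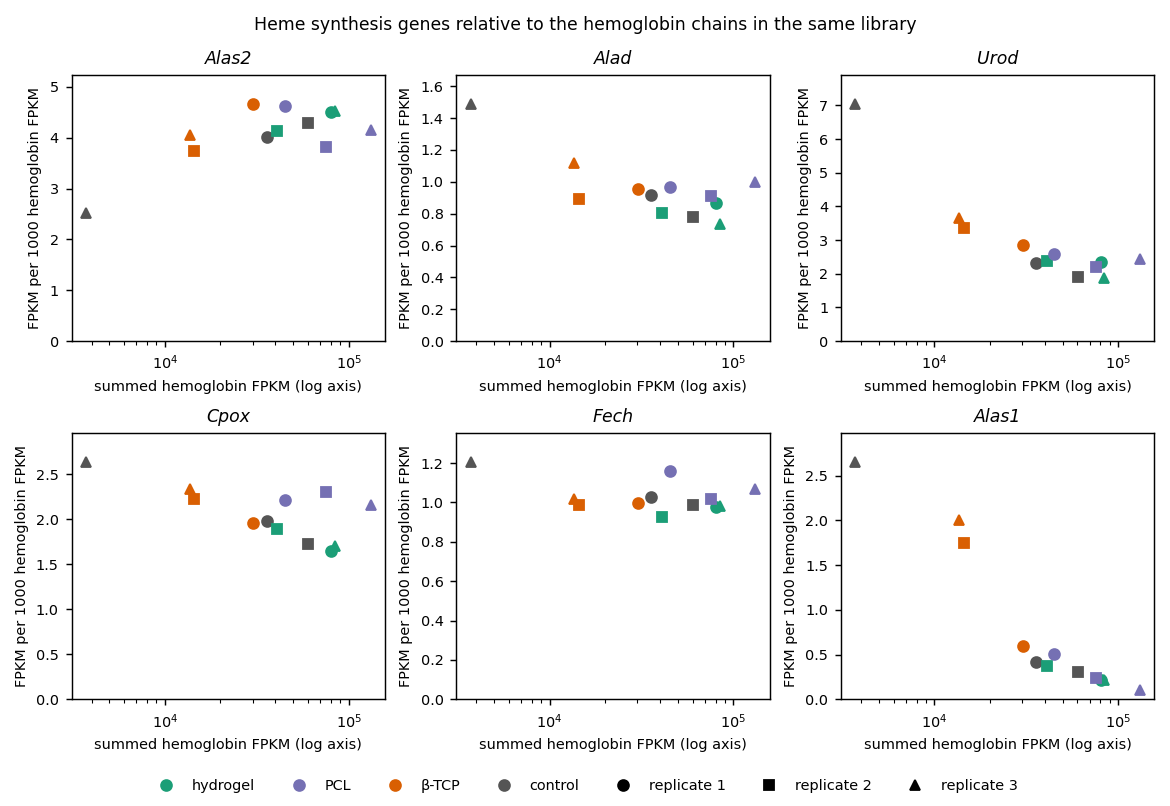
FPKM of the heme synthesis genes per 1000 FPKM of the 4 hemoglobin genes, against the summed hemoglobin FPKM of the library on a log axis, with 1 point per library. Alas2 and Fech stay near 4 and 1 over most libraries, Urod is highest in control replicate 3 at 7.04, and the Alas1 ratio is lower in libraries with more hemoglobin.

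Uros and Ppox, which encode further enzymes of the pathway, varied with the 9 genes. In PCL compared with β-TCP their log2 fold changes were 1.63 and 1.19 (adjusted p = 0.164 and 0.15 from limma), and both passed the threshold of the methods. In β-TCP compared with hydrogel both were lower at that threshold (-1.34 and -1.01, adjusted p = 0.138 and 0.112). In PCL compared with control Uros was higher at that threshold (1.5005, adjusted p = 0.236), and Ppox, at 0.98 (adjusted p = 0.245), missed the fold change. Neither passed an adjusted p of 0.05 in any comparison.

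Alas1, the form of the first enzyme used outside red cells, did not follow them. It was at 17.6, 15.1 and 17.9 FPKM in the hydrogel libraries, 22.9, 17.5 and 13.2 FPKM in the PCL libraries, 18.0, 25.4 and 27.3 FPKM in the β-TCP libraries, and 14.7, 18.3 and 9.85 FPKM in the control libraries. Its mean was higher in the β-TCP than in the hydrogel libraries, 23.6 and 16.9 FPKM, the reverse of Alas2. The adjusted p from limma was 0.216 (log2 fold change 0.44, 95% interval -0.10 to 0.99). The lowest β-TCP library, at 17.97 FPKM, lay close to the highest hydrogel library, at 17.89 FPKM. Compared with the control group its log2 fold change in the β-TCP group was 0.70 (adjusted p = 0.143). Its highest library was 2.77 times its lowest, against 58.5 times for Alas2, and its slope on hemoglobin was 0.02 over 12 libraries and -0.22 without control replicate 3.

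Genes that supply the pathway with iron, glycine and transport across the mitochondrial membrane were taken as a list of 17, all tested. In PCL compared with control 15 had higher means and 6 passed the threshold of the methods, all higher, against 2.37% of all genes tested, with a list median of 0.74 against 0.04 for all genes. They were Slc25a37, the mitochondrial iron importer mitoferrin (2.17), Abcb10, a mitochondrial transporter (1.70), Glrx5, which serves iron-sulfur cluster assembly (1.56), Fam210b (1.54), Tmem14c, which serves porphyrin transport (1.01), and Slc25a39, a mitochondrial carrier (1.005). In PCL compared with β-TCP 16 had higher means and 6 passed, against 3.34% of all genes, with Slc25a38, a glycine carrier (1.04), in place of Tmem14c. In β-TCP compared with hydrogel 15 had lower means and 1 passed, Fam210b (-1.44, adjusted p = 0.13 from limma), a share near the 5.02% of all genes. None of the 17 passed an adjusted p of 0.05 in any comparison, and the lowest was 0.0739, for Steap3, an iron reductase, in PCL compared with hydrogel (0.76). Tfrc, the transferrin receptor, had the highest mean of the list at 234 FPKM and ranged from 102 to 466 FPKM, a far narrower range than the hemoglobin genes.

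Other globins were mostly low. Of 11 listed symbols 9 were in the table and 5 were tested. Ahsp, the chaperone of free alpha chains, was at 1234, 582 and 1245 FPKM in the hydrogel libraries, 776, 1314 and 2603 FPKM in the PCL libraries, 492, 173 and 179.8 FPKM in the β-TCP libraries, and 464, 736 and 10.0 FPKM in the control libraries. It varied more steeply than the alpha and beta chain genes, with a slope of 1.41 over 12 libraries and 1.14 without control replicate 3. Hbq1b, a theta globin, ran from 0.675 to 98.7 FPKM with a slope of 1.10 that the added 1 FPKM flattens at low values. Both were higher in PCL than control at the threshold of the methods (log2 fold changes 3.15 and 2.44, adjusted p = 0.245 and 0.236 from limma). The embryonic globins Hbe1 and Hbz stayed at or below 2.98 and 0.205 FPKM. Cygb, a globin of fibroblast-like cells, ran from 2.84 to 7.23 FPKM.

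The 9 genes moved as a block across libraries. Over the 36 pairs Pearson's r of log2(FPKM + 1) ran from 0.962 to 0.998 over 12 libraries, with a median of 0.988, and the median was 0.983 without control replicate 3. Among the other genes tested, those whose pattern was most like the summed hemoglobin genes by r were Tal1, a transcription factor of blood formation (0.998), Trim10 (0.998), the beta-globin gene LOC689064 (0.998), Rbm38 (0.997) and Slc25a37 (0.997). For Alas2 they included Rhd and Rhag, which encode Rh proteins of the red cell membrane (0.999 and 0.997), Ermap (0.997), and the erythroid spectrin gene Sptb (0.997). By the same measure they included, for Fech, Add2, Slfn14 and Slc14a1 (0.999, 0.998 and 0.998), for Cpox Gfi1b and Epor (0.998 each), for Alad Uros and Tspo2 (0.997 each), and for Urod Ubac1, Pigq and Slc25a39 (0.998, 0.998 and 0.997). For the chains they were Trim10, Rbm38 and Tal1 (Hba1), Tal1, Aqp3 and Gfi1b (Hba2), Trim58, LOC689064 and Paqr9 (Hbb), and Rhag, Btnl10 and Rhd (Hbb-b1), at 0.994 to 0.998.

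Markers of red cells and of other cells were measured beside these genes. The 20 red cell markers, none of them at 0 in every library, summed to 1612 to 3504 FPKM in the hydrogel libraries, 2100.2 to 6469 FPKM in the PCL libraries, 501 to 1334 FPKM in the β-TCP libraries and 56.3 to 2300 FPKM in the control libraries. The 19 that were tested were all lower in the β-TCP libraries than in the hydrogel libraries with no overlap, and all higher in the PCL than in the β-TCP libraries, against 34.5% and 21.7% of all genes, and none passed an adjusted p of 0.05. The one that failed the filter was Gata1, a transcription factor of red cell precursors, at 0.0316 to 0.637 FPKM. Of the other marrow cells, the summed markers of neutrophils and of dividing cells varied with hemoglobin, and those of B cells and megakaryocytes followed it less closely or not at all. The 10 neutrophil markers summed to 2271 to 4665 FPKM in the hydrogel libraries, 1823 to 5641 FPKM in the PCL libraries, 847 to 1226 FPKM in the β-TCP libraries and 41.3 to 3181 FPKM in the control libraries. Most of that sum came from S100a8 and S100a9, with means of 945 and 1294 FPKM over the 12 libraries. Within that list Mpo, Elane, Ctsg, Ngp, Camp and Ltf had a higher mean in the control than in the PCL libraries, unlike hemoglobin. For Mpo the means were 28.7 FPKM in PCL and 44.4 FPKM in control, and for Camp 51.9 and 54.1 FPKM. The 8 markers of dividing cells summed to 363 to 721 FPKM in the hydrogel, 390.3 to 647 FPKM in the PCL, 125 to 240.2 FPKM in the β-TCP and 70.3 to 507 FPKM in the control libraries. The 8 B cell markers summed to 381 to 723 FPKM in the hydrogel, 116 to 357 FPKM in the PCL, 78.2 to 142 FPKM in the β-TCP and 31.5 to 527 FPKM in the control libraries, and PCL replicates 2 and 3, which were rich in hemoglobin, had 116 and 149.6 FPKM. The 7 megakaryocyte markers, 1 of them at 0 in every library, summed to 214 to 382 FPKM in the hydrogel, 247 to 362 FPKM in the PCL, 186 to 426 FPKM in the β-TCP and 69.8 to 230.2 FPKM in the control libraries, with the highest sums in β-TCP replicates 2 and 3. Pearson's r with log2 summed hemoglobin, given as a description over 12 libraries that share their composition, was 0.953 for neutrophils, 0.969 for dividing cells, 0.744 for B cells and 0.507 for megakaryocytes, and without control replicate 3 it was 0.958, 0.959, 0.553 and -0.099 in the same order.

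Markers of other cells went the other way or on their own. The 8 macrophage markers summed to 641 to 983 FPKM in the hydrogel, 766 to 983 FPKM in the PCL, 1261 to 1705 FPKM in the β-TCP and 648 to 831 FPKM in the control libraries. Of 7 osteoclast markers 6 were in the table, and they summed to 9458 to 9661 FPKM in the β-TCP libraries and to 2279 to 5557 FPKM in all others. The tissue label is bone, and the 8 osteoblast markers were present in every library, at 4709 to 17801 FPKM in sum. The 8 muscle markers ran from 14.8 to 464 FPKM in sum, highest in hydrogel replicate 3. The 6 endothelial markers summed to 83.9 to 164 FPKM, with the lowest value in PCL replicate 3 and the highest in control replicate 3. Cartilage markers summed to 54.4 to 756 FPKM in the 9 scaffold libraries and to 1906 to 12402 FPKM in the control libraries. The part that these cell types have in the levels of the 9 genes was not tested.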

How the data were processed

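RNA-seq libraries of rat femur defect tissue, 3 for each of 4 groups, were grouped by the condition in their labels. The authors' steps were trimming (Trimmomatic), alignment (HISAT2) and quantification (Cufflinks), and the deposited table of FPKM values was used as it stands. The submitters' processing notes name the build Rnor_6.0 and give no versions. Labels and paper name different extraction and library kits, which could not be settled. A further 3 columns of values match no sample and were not used.

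Fragments were recovered from the steps of the FPKM (18684 of 18684 genes above 0 gave whole numbers). Log2(FPKM + 1) of the 12633 genes that reached 1 FPKM in 3 or more libraries was tested with limma 3.58.1 in R 4.3.3, with a trend in the empirical Bayes step and two-sided p-values adjusted by Benjamini-Hochberg over all genes. The test was also run on simulated data, and nothing reported here rests on that run. The threshold of the paper's methods (p under 0.05, taken as unadjusted, fold change over 2 or under 0.5) was counted beside it. Other settings were pseudocounts of 0.1 and 5, other filters, 3 scalings, the 2 groups alone, a replicate block, no trend, limma-voom on fragments and each library left out. Averaging β-TCP replicates 2 and 3, and fragment shares, were added after seeing the data. Named genes were the 9 members, the listed genes past a threshold or highest in their list, and the genes with the highest r. Members and lists were chosen with earlier results of these data known. Promoter windows are from RefSeq (GRCr8), aligned with Biopython 1.88. Cpox had no window, and protein sequences were not used here. A few genes that the naming rule selects are not reported here.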

Additional observations from a re-analysis of the deposited data

How the results depend on the processing

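Over the 24 other settings, the sign of every member's log2 fold change stayed the same in hydrogel against control, PCL against control, β-TCP against hydrogel and PCL against β-TCP. The number of members past the threshold of the methods did not stay the same. In hydrogel against control (2 in the fit as reported) it was 0 with no filter, median-of-ratios scaling, quantile normalization, hemoglobin genes left out of the total, only the 2 groups, limma-voom, or β-TCP replicates 2 and 3 averaged, and 0 to 9 with 1 library left out. In PCL against control (7) it was 4 with quantile normalization, 1 with only the 2 groups and 0 to 9 with 1 library left out. In β-TCP against hydrogel (3) it was 1 with no filter or limma-voom, 5 with hemoglobin genes left out of the total, 9 with only the 2 groups, 0 with the pair averaged and 0 to 9 with 1 library left out. In PCL against β-TCP (7) it was 3 with the pair averaged and 0 to 9 with 1 library left out, and in β-TCP against control (0) it was 0 to 6. At an adjusted p under 0.05, 0 of the 9 passed in each comparison, with 2 exceptions: with only the 2 groups 9 passed in β-TCP against hydrogel and 9 in PCL against β-TCP, and with 1 library left out 0 to 9 passed in both, the 9 without control replicate 3. These settings take the spread of the control libraries, or of control replicate 3, out of the fit.

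The replicate numbers of the titles did not pair the libraries: same-numbered libraries of 2 groups deviated from their group means with r from -0.61 to 0.47. With the replicate number as a block, 0 members passed the threshold of the methods in hydrogel against control, 3 in PCL against control, 0 in β-TCP against hydrogel and 5 in PCL against β-TCP.

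In β-TCP against control signs turned. Alas2 was at -0.039 with a pseudocount of 5, -0.0024 with median-of-ratios scaling, -0.14 with quantile normalization and -0.079 with hemoglobin genes left out. Hbb was at -0.058 with median-of-ratios scaling, -0.034 with quantile normalization, -0.13 with hemoglobin genes left out and -0.000758 with limma-voom. Quantile normalization gave 0.13 for Hba1 and -0.12 for Hbb-b1. Averaging the pair gave 0.038 for Cpox, 0.041 for Hba1 and 0.048 for Urod. With 1 library left out the values ran from -1.37 to 0.64 for Hba1, -1.67 to 0.39 for Hba2, -1.13 to 0.81 for Hbb, -1.13 to 1.05 for Hbb-b1, -1.35 to 0.98 for Alas2, -1.09 to 0.35 for Alad, -0.70 to 0.34 for Urod, -1.11 to 0.53 for Cpox and -1.32 to 0.42 for Fech. In PCL against hydrogel quantile normalization gave -0.11 for Hbb and -0.21 for Hbb-b1, and leaving out 1 library gave -0.13 to 0.60 for Hba1, -0.36 to 0.36 for Hbb, -0.23 to 0.50 for Hbb-b1, -0.22 to 0.47 for Alas2 and -0.034 to 0.69 for Urod. The cause of the other changes was not tested. With 3 libraries a group the spread between libraries, not the depth, limits these comparisons.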

Other observations

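Hba-a1, a further alpha chain gene of the table that RefSeq names Hba-a3, departed from the rest of the block in 1 library. It was at 9.97 FPKM (71 fragments) in hydrogel replicate 1, against 248 and 461 FPKM in hydrogel replicates 2 and 3, although Hba1 was at 34859 FPKM there. Per 1000 FPKM of Hba1 it was 0.286 in that library and 10.5 to 21.9 in the other 11. That ratio was 13.1 and 12.01 in hydrogel replicates 2 and 3, 10.5, 19.4 and 20.1 in the PCL libraries, 21.3, 17.9 and 21.9 in the β-TCP libraries, and 11.2, 10.5 and 12.9 in the control libraries, so PCL replicates 2 and 3 lay within the β-TCP range. LOC100134871, the beta gene whose upstream window is nearly that of Hbb-b1, was at 8414, 5743 and 12018 FPKM in the hydrogel libraries, 5089.7, 8519 and 13192 FPKM in the PCL libraries, 3565, 2009 and 2078 FPKM in the β-TCP libraries, and 4672, 6656 and 302 FPKM in the control libraries, above Hbb-b1 in every library. Its ratio to Hbb ran from 0.279 in control replicate 3 to 0.558 in control replicate 1.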
